A study of Forsythia suspensa with 2 samples.

Results

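In 55 assembly loci of Forsythia suspensa, the transcript that made up the largest part of the locus in the flower library was not the transcript that led in the leaf library, and the share of at least 1 of these leaders differed between the libraries by at least 50 percentage points. The loci were chosen from the measured shares. A locus is the set of assembled transcripts whose identifiers agree up to the transcript number, and a transcript's share is its expected count divided by its effective length, as a percentage of the sum over the locus. Loci of 2 to 7 transcripts with at least 20 counts in each library were compared. All transcripts of the 55 loci are members, which gives 178 of the 81913 transcripts and 55 of the 67948 loci. Forsythia suspensa is a yellow-flowering shrub of the olive family, grown as an ornamental and for its medicinal fruit. The flower group is 1 library of flower tissue and the leaf group 1 library of leaf tissue, both untreated, from plants aged 2 years grown outdoors. The labels give no genotype and leave unsaid whether the tissues share a plant or were pooled over plants. With 1 library per tissue there is no replicate and no test across samples, and the values below describe these 2 libraries.

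A plant gene often yields several messenger RNAs. Alternative splicing, which in plants frequently leaves an intron in the mature transcript, and alternative start and polyadenylation sites give transcripts that differ in length, stability, localisation or the protein they encode, and organs can differ in which form prevails. An assembly made from reads alone groups transcripts that share sequence, so 1 locus can hold splice forms, alleles or close paralogs, and it can hold fragments of a longer transcript. The identifiers carry no gene name and do not tell these cases apart, so each locus is described here by its identifier, lengths, counts and shares.

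Expected counts summed to 7442016 over the flower library and to 7234013 over the leaf library. For a transcript without counts, up to 3 counts cannot be told from none, which corresponds to 0.403 CPM (counts per 1000000 library counts) in flower and to 0.415 CPM in leaf. All expected counts were whole numbers (0 fractional counts in either library), so the files show no division of fragments among the transcripts of a locus. How a fragment that matches several transcripts was placed is not given in the sources used here, and the effect of this placement on the shares was not tested. Intervals are exact Clopper-Pearson 95% intervals for counting error only and do not cover differences between plants. Ratios between the libraries are of counts scaled with the trimmed mean of M-values (TMM), with exact intervals conditional on the transcript's or locus's total count. The loci were picked for large moves, and no interval allows for that choice.

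Of the 5583 loci compared, the leading transcript differed between flower and leaf in 1647 (29.5%), and 55 (0.985%) also met the condition on the move. Together the 55 loci received 45570 counts in flower, or 0.612% of that library, and 46789 in leaf, or 0.647%. The loci held 2 transcripts in 22 cases, 3 in 16, 4 in 5, 5 in 6 and 6 in 6, and none of the 99 compared loci of 7 transcripts was among them (0 loci). As a share of the compared loci of the same size, this was 0.712% at 2 transcripts, 1.32% at 3, 0.773% at 4, 1.82% at 5 and 2.99% at 6. Switching was most frequent among loci with few counts. Where the library with fewer counts held 20 to 49, 19 of 959 compared loci switched (1.98%), against 8 of 1187 (0.674%) at 50 to 99 counts, 21 of 2755 (0.762%) at 100 to 499 and 7 of 682 (1.03%) at 500 or more. The median switching locus had 146 counts in flower and 134 in leaf, against 189 and 182 over all compared loci.

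The flower leader's share had a median of 68.7% in flower, with a range from 25.3 to 100%, and of 13.7% in leaf, with a range from 0 to 46.6%. The leaf leader's share had a median of 13.5% in flower, with a range from 0 to 45.8%, and of 69.4% in leaf, with a range from 27.2 to 100%. A leader held over 50% of its locus in its own tissue in 45 loci for flower and 44 for leaf. In a locus of 2 transcripts both leaders necessarily move by the same amount. Among the 33 loci of 3 or more, both leaders moved by at least 50 points in 5. The flower leader alone did so in 13 and the leaf leader alone in 15. Where 1 leader alone passed 50 points, the move of the other ranged from 6.16 points in TR32795|c1_g1 to 48.5 in TR33501|c1_g1.

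**Figure D1:**
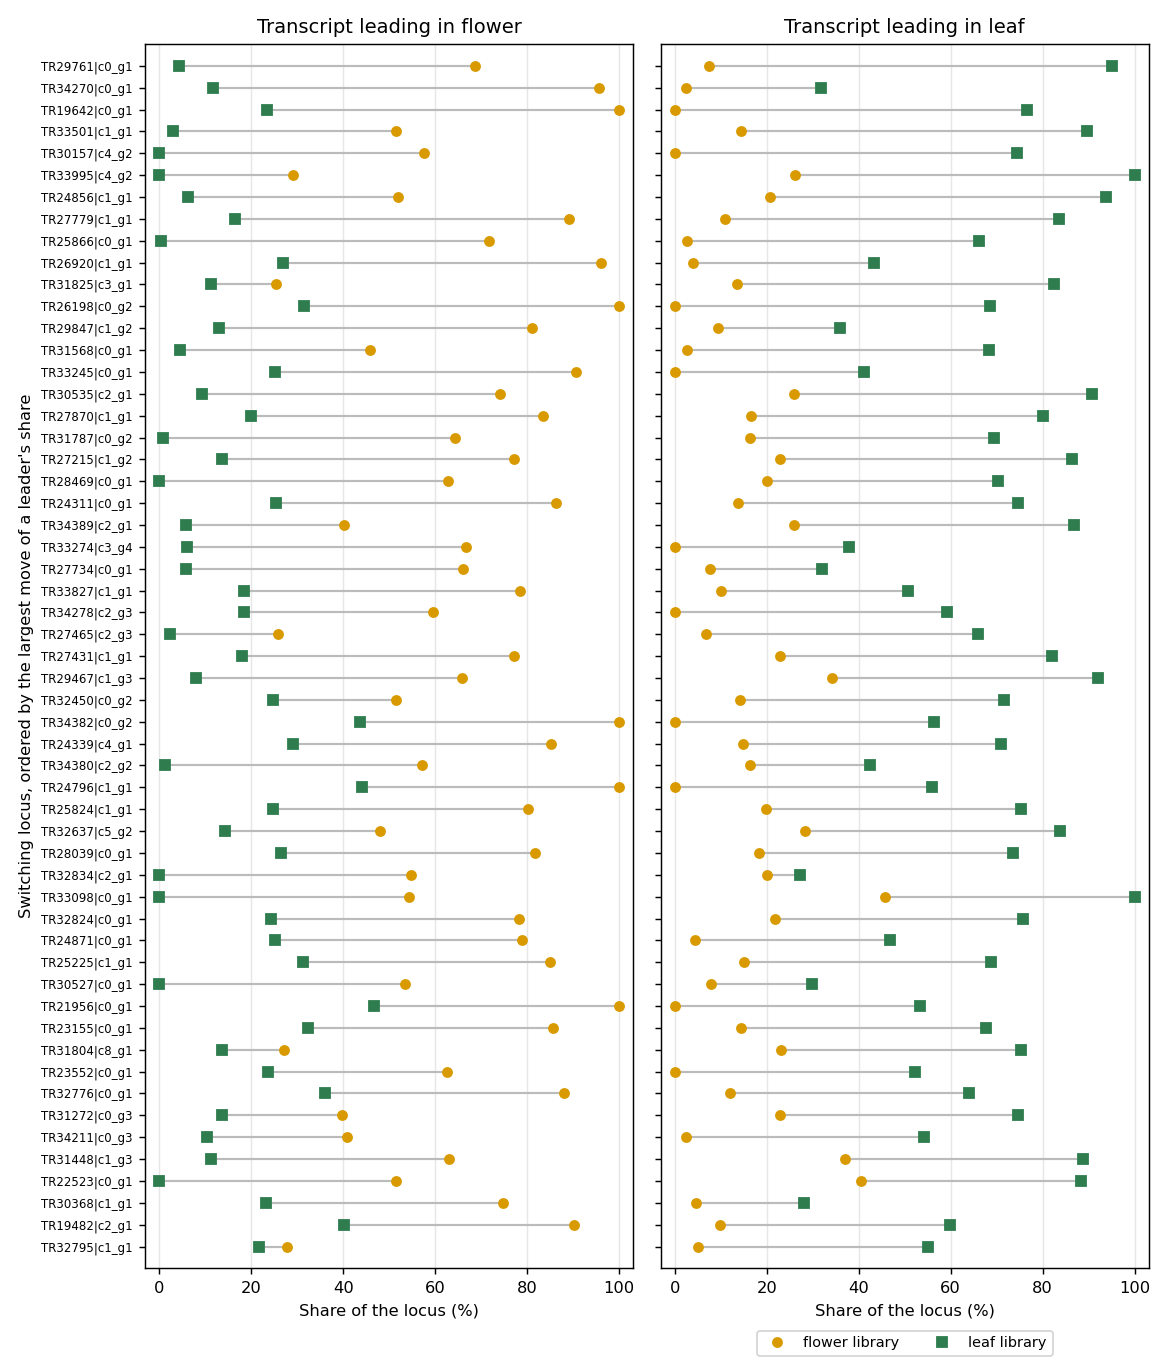
Share of the locus (%) held in the flower library (circles) and the leaf library (squares) by the transcript that leads in flower (left) and the transcript that leads in leaf (right), for all 55 switching loci ordered by the largest move of a leader's share. The flower leader lies between 25.3 and 100% in flower and between 0 and 46.6% in leaf; these shares chose the loci.

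The locus with the most counts, TR27870|c1_g1, held transcripts of nearly equal length whose proportions were close to mirror images in the 2 libraries. Its transcript i2, of 1872 bases, received 15493 counts in flower and 4037 in leaf, and i1, of 1907 bases, received 3120 in flower and 16614 in leaf. The share of i2 was thus 83.5% in flower and 19.9% in leaf. Its share of the counts alone was 83.2% (82.7 to 83.8) in flower and 19.5% (19.0 to 20.1) in leaf, so counting error was small beside the difference between these libraries. The summed level of the locus was 2458 TMM-scaled CPM for flower and 2905 for leaf, which gives a flower-over-leaf ratio of 0.846 (0.830 to 0.863). This was by far the most deeply counted switch, with 18613 flower counts where the next locus had 4694.

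TR31448|c1_g3 came next, and there the change in proportion lay mainly in the shorter transcript. Transcript i2, of 1884 bases, received 2409 counts in flower and 238 in leaf, which gives a flower-over-leaf ratio of 9.50 (8.31 to 10.9). The longer i1, of 2928 bases, received 2285 counts in flower and 3023 in leaf, which gives a leaf-over-flower ratio of 1.41 (1.33 to 1.49). The lead of i2 in flower was narrow by counts, with 51.3% (49.9 to 52.8) of the flower counts, and rested partly on the division by length, which gave it a share of 62.9%.

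TR25866|c0_g1 held 3 transcripts, of which each leader had a small share in the other tissue and the remaining transcript was present in both. The flower leader held 0.483% of the locus in leaf, and the leaf leader 2.73% in flower. The flower leader i2, of 1184 bases, received 1470 counts in flower and 11 in leaf, which is a 125-fold difference (69.9 to 252). The leaf leader i3, of 1276 bases, received 61 counts in flower and 1645 in leaf, which is a 28.7-fold difference in the other direction (22.2 to 37.7). Transcript i1, of 1227 bases, received 545 counts in flower and 792 in leaf and held 25.5% and 33.3% of the locus. The locus as a whole was at a similar level, with a flower-over-leaf ratio of 0.796 (0.751 to 0.844), while its leaders differed in opposite directions.

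A pair of loci of 5 transcripts had 1 dominant transcript in flower and a spread of transcripts in leaf. In TR29847|c1_g2, i9 of 3151 bases received 1846 counts in flower and 1227 in leaf, and its share was 81.0% in flower and 13.0% in leaf. The other 4 transcripts had 25 to 77 counts in flower and 657 to 1596 in leaf, with leaf-over-flower ratios from 16.9 to 28.0. The leaf leader, i6 of 955 bases, led with 35.9% after division by length, although i5 of 3276 bases had more leaf counts (1596 against 886). In TR30368|c1_g1, i2 of 2177 bases received 869 counts in flower and 459 in leaf, with shares of 74.7% and 23.3%. Its leaf leader, i6 of 607 bases, received 12 counts in flower and 119 in leaf and a leaf share of 28.0%. Transcript i2 had the most counts of that locus in leaf as well.

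The same form was seen in TR34270|c0_g1, a locus of long transcripts. Transcript i5 of 4559 bases received 539 counts in flower and 136 in leaf, and its share was 95.7% in flower and 11.7% in leaf. In leaf the locus was divided between i1 of 5093 bases, with 15 counts in flower and 415 in leaf, i3 of 4314 bases, with 3 and 313, and i2 of 731 bases, with 1 and 33. The leaf-over-flower ratio was 29.5 (17.7 to 53.1) for i1 and 111 (37.7 to 542) for i3. The last transcript, i4, had 0 counts in flower and 3 in leaf.

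In TR25824|c1_g1, i1 of 1405 bases received 792 counts in flower and 538 in leaf, and i2 of 1518 bases received 214 in flower and 1787 in leaf. The share of i1 was 80.2% in flower and 24.7% in leaf. In TR25225|c1_g1, i1 of 1022 bases received 435 counts in flower and 213 in leaf, and i2 of 828 bases received 60 in flower and 360 in leaf. The share of i1 there was 84.8% in flower and 31.3% in leaf. In both loci the leaf leader differed more between the libraries than the flower leader did, with leaf-over-flower ratios of 8.89 (7.71 to 10.3) and 6.39 (4.85 to 8.55), against flower-over-leaf ratios of 1.38 (1.24 to 1.54) and 1.92 (1.62 to 2.27) for the flower leaders.

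**Figure D2:**
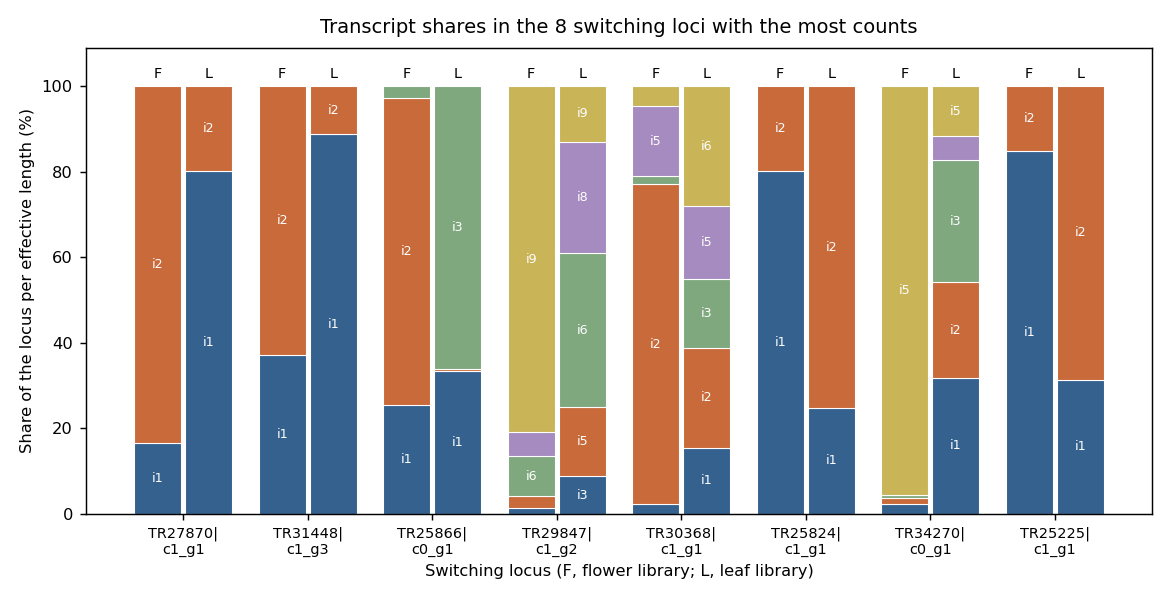
Stacked shares (%) of the transcripts of the 8 switching loci with the most counts in the library where the locus has fewer, in flower (F) and leaf (L); colours separate the transcripts of 1 locus, numbered where the share is at least 7%. In TR27870|c1_g1 the share of i2 is 83.5% in flower and 19.9% in leaf.

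The loci fell into 3 main patterns by the ratios of their leaders, and this division was made after the values were seen. In 17 loci the flower leader was at least 2-fold higher in flower and the leaf leader lower in flower by at least 2-fold, on the log2 scale with a prior count of 2. In 15 loci the flower leader alone was at least 2-fold apart, and in 18 the leaf leader alone. In 3 loci both leaders exceeded their leaf level by at least 2-fold and in 2 the reverse held for both, so that the lead passed to the transcript that differed less between the libraries. The median log2 ratio of the summed level was -0.08 in the 17 loci with opposite leaders, 1.31 where the flower leader alone was apart and -0.77 where the leaf leader alone was.

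**Figure D3:**
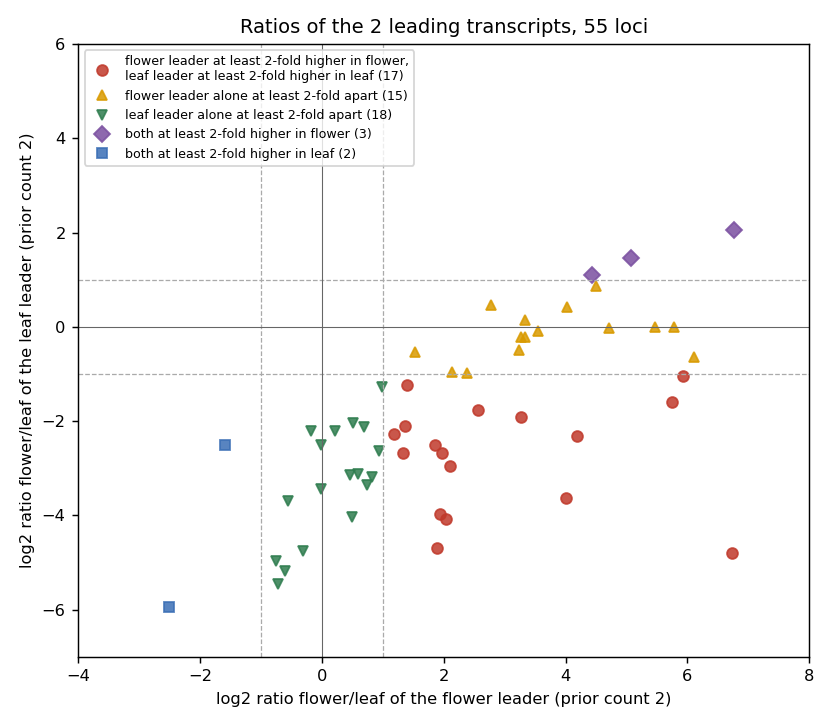
log2 ratio of flower over leaf (TMM-scaled, prior count 2) of the flower leader (horizontal axis) against that of the leaf leader (vertical axis), 1 point per locus; dashed lines mark 2-fold. The lower right holds the 17 loci whose leaders differ in opposite directions, and the 15 and 18 loci with 1 leader apart lie between the dashed lines of the other leader.

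Of the 5 largest moves, 4 were in loci with opposite leaders, TR34270|c0_g1 above being 1 of them. TR29761|c0_g1 had the largest move. Its flower leader i4, of 1462 bases, received 684 counts in flower and 10 in leaf, and its leaf leader i7, of 1269 bases, received 64 in flower and 185 in leaf. The share of i7 was 7.56% in flower and 95.1% in leaf. Transcript i1, of 1227 bases, followed the flower leader with 170 counts in flower and 1 in leaf, and i5, of 400 bases, received 5 and 0.

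TR33501|c1_g1 had the same number of counts in both libraries, 459, divided differently. The leaf leader i3, of 1742 bases, received 90 counts in flower and 430 in leaf, so its share was 14.5% in flower and 89.6% in leaf. The flower leader i6, of 1487 bases, received 268 in flower and 12 in leaf, and i5, of 923 bases, received 101 and 17. The summed level had a flower-over-leaf ratio of 0.939 (0.823 to 1.07), an interval that includes 1.

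In TR30157|c4_g2 each leader had 0 counts in the other tissue, but the locus had few counts. Its flower leader i6, of 791 bases, received 31 counts in flower and 0 in leaf, and its leaf leader i2, of 617 bases, received 0 in flower and 22 in leaf. Against the floor of 3 counts per library, and with the counts of 31 and 22 taken without error, i6 was at least 9.70-fold higher in flower and i2 at least 7.81-fold higher in leaf. The lower limits of the exact intervals, which also cover the error of those counts, were 7.43 for i6 and 5.83 for i2. Transcript i4, of 933 bases, was found in both, with 28 counts in flower and 13 in leaf. It held 42.4% of the locus in flower and 25.6% in leaf.

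Further loci of this pattern were named after their values were seen, and the leaders of the first 3 were of closely similar length. In TR27779|c1_g1, i2 of 1269 bases received 98 counts in flower and 20 in leaf, and i1 of 1260 bases received 12 and 101. The share of i2 was 89.0% in flower and 16.4% in leaf. In TR34211|c0_g3, i3 of 1693 bases received 199 counts in flower and 44 in leaf, and i8 of 1633 bases received 12 and 221, while the other 3 transcripts had 29 to 53 counts in flower and 17 to 35 in leaf. In TR28469|c0_g1, i1 of 1493 bases received 123 counts in flower and 0 in leaf, whereas i3, of 1492 bases, received 34 and 33. The leaf leader of that locus, i2 of 1386 bases, received 36 counts in flower and 72 in leaf. The leaders of TR27215|c1_g2 were farther apart in length, by 356 bases. Its i2 of 1267 bases received 387 counts in flower and 60 in leaf, and i1 of 911 bases received 78 and 254.

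Where the flower leader alone was apart, part of the transcripts of some loci had few or no counts in leaf while the rest differed less between the libraries. The loci in this paragraph were also named after their values were seen. In TR34380|c2_g2, i6 of 1306 bases received 136 counts in flower and 1 in leaf. The other 3 transcripts of that locus, of 2358 to 2601 bases, had 61 to 75 counts in flower and 47 to 71 in leaf. In TR33995|c4_g2, i5 of 1512 bases received 120 counts in flower and 114 in leaf. Its other 3 transcripts, of 482 to 869 bases, had 20 to 62 counts in flower and 0 in leaf. In TR31787|c0_g2, i2 of 1598 bases received 214 counts in flower and 1 in leaf, beside i1 with 52 and 77 and i4 with 62 and 33. The last pair, of 1535 and 1534 bases, differ by a single base in length.

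The converse form, in which the leaf leader alone was apart, included TR24871|c0_g1, again named after its values were seen. Its flower leader i2, of 1789 bases, received 171 counts in flower and 266 in leaf, and its leaf leader i3, of 1518 bases, received 8 and 413. The remaining transcript i1, of 1687 bases, received 34 and 279. In TR31272|c0_g3, the leaf leader i3 of 992 bases received 22 counts in flower and 292 in leaf, while i1 and i4, of 1133 and 1097 bases, received 42 and 43 in flower and 54 and 60 in leaf. In that locus the flower lead was close, with shares of 39.7% for i4 and 37.4% for i1.

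The summed level of a locus is made of the same counts as the shares, and it tends to differ where 1 leader alone does, as the medians by pattern above show. Its values are therefore a description of the chosen loci and not independent of the rule. It was at least 2-fold apart in 26 of the 55 switching loci (47.3%), against 30.1% of all 5583 loci compared. It was higher in flower in 14 (25.5%, against 13.5% of all compared) and higher in leaf in 12 (21.8%, against 16.6%). The other 29 switching loci were within 2-fold. The median log2 ratio was -0.09 in the switching loci and 0.05 over all compared, and the median of its absolute value 0.91 and 0.60. The switching loci were also less deeply counted than the compared loci, as given above, and the part of depth in this difference was not tested. With summed TPM, a per-length level, the number at least 2-fold apart was 33 of 55 (60.0%), against 30.5% of all compared.

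**Figure D4:**
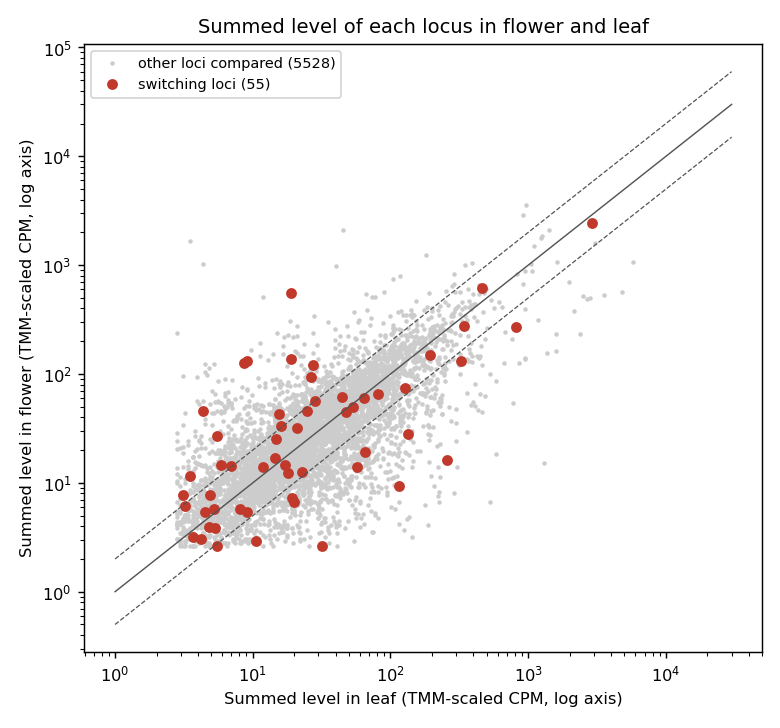
Summed level of each locus in leaf and flower (TMM-scaled CPM, log axes) for the 55 switching loci (large points) and the other 5528 loci compared (small points); the solid line marks equal levels and the dashed lines 2-fold. Of the switching loci, 29 lie between the dashed lines, 14 above and 12 below.

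The largest summed differences toward flower were in TR28039|c0_g1, TR24856|c1_g1 and TR27465|c2_g3. TR28039|c0_g1 had 4219 counts in flower and 134 in leaf, which gives a ratio of 29.6 (24.9 to 35.4). Its transcript i2, of 1820 bases, received 4157 counts in flower and 114 in leaf and so the most counts in both libraries, but i3, of 278 bases, with 62 and 20, led in leaf after division by length, at a share of 73.6%. TR24856|c1_g1 had 959 and 61 counts, a ratio of 14.8 (11.4 to 19.4). Here i2, of 1833 bases, received 685 counts in flower and 4 in leaf, which is a 161-fold difference (62.5 to 592), and i3, of 1752 bases, received 259 and 57, a 4.27-fold difference (3.19 to 5.79). The leaf leader of that locus was therefore itself higher in flower.

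Toward leaf, the largest were in TR33827|c1_g1, TR24339|c4_g1 and TR33274|c3_g4. TR33827|c1_g1 had 122 counts in flower and 1836 in leaf, which gives a leaf-over-flower ratio of 16.0 (13.3 to 19.4). Its flower leader i6, of 319 bases, received 41 counts in flower and 48 in leaf, while i2, of 1691 bases, received 53 and 1400, and i1, of 863 bases, 28 and 388. TR24339|c4_g1 had 71 and 823 counts, a ratio of 12.3 (9.68 to 16.0), with 65 and 359 for i1 of 2249 bases and 6 and 464 for i2 of 1271 bases. TR33274|c3_g4 had 20 flower counts, the minimum of the rule, and 226 in leaf, which gives a ratio of 12.0 (7.61 to 20.1). Its flower leader i1, of 1132 bases, received 14 and 21 counts, and 4 of its 6 transcripts had 0 counts in flower and 29 to 68 in leaf. The flower shares of that locus rest on 20 counts, with i1 at 70.0% of them (45.7 to 88.1).

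The leaders differed in length in every one of the 55 loci (0 pairs of equal length). The flower leader was the longer in 35 loci (63.6%) and the leaf leader in 20. Among all 1647 loci with differing leaders the flower leader was the longer in 830 (50.4%). Effective length enters the shares that chose the leaders and the loci, so these proportions are a description only. Effective length fell short of length by a median of 170 bases in flower and 177 in leaf. The part of this in the lengths of the leaders was not tested. Median lengths were 1132 bases for flower leaders, ranging from 228 to 5215, and 955 bases for leaf leaders, ranging from 234 to 5093. The lengths were within 50 bases of each other in 7 loci, within 100 in 14 and within 200 in 25. They were at least 2-fold apart in 18 loci, with the flower leader the longer in 11 and the leaf leader in 7. Members were shorter than the transcripts of all compared loci, with a median of 939.5 bases against 1306, and 8.99% of them were under 300 bases against 2.95%.

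Many of the switches depended on the division by effective length. In 15 of the 55 loci the same transcript had the most counts in both libraries, a tie included, and the lead passed only per unit length. The leaders of these 15 loci had a median length ratio of 3.59, against 1.16 in the other 40. The extreme was TR34382|c0_g2, named after its values were seen, where i1 of 5215 bases received 376 counts in flower and 358 in leaf, and i2 of 383 bases received 0 and 19. The share of i2 was 0% in flower and 56.4% in leaf, on 19 counts. TR19642|c0_g1, among the 5 largest moves, was of this kind too, with 51 counts in flower and 82 in leaf for i1 of 598 bases, and 0 and 59 for i2 of 266 bases. When shares were taken from counts without division by length, 37 loci met the rule, of which 31 were among the 55. The other 24 of the 55 did not meet it by counts alone.

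**Figure D5:**
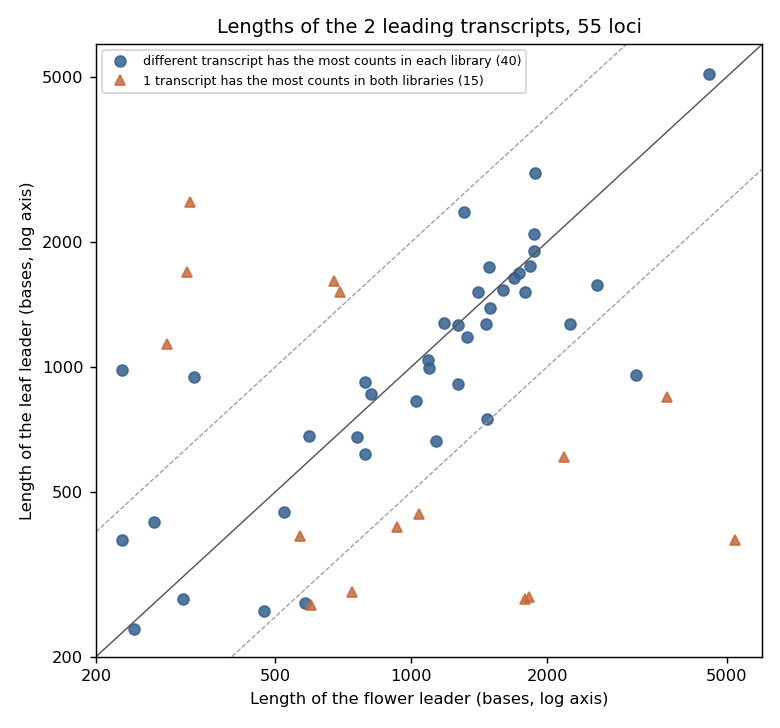
Length in bases of the flower leader (horizontal, log axis) and of the leaf leader (vertical, log axis) in the 55 switching loci; triangles mark the 15 loci in which 1 transcript has the most counts in both libraries and circles the other 40. The solid line marks equal length and the dashed lines 2-fold; circles lie mostly near the solid line and triangles mostly outside the dashed lines, with median length ratios of 1.16 and 3.59.

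Some leaders rested on very few counts. A leader had under 10 counts in its own tissue in 10 loci (4 flower leaders and 7 leaf leaders), and 12 loci had a leader under 300 bases. TR30527|c0_g1 and TR32795|c1_g1 show how a few counts set a lead. In TR30527|c0_g1, named after its values were seen, i4 of 228 bases led in flower with 2 counts and had 0 in leaf, beside 3 transcripts of 2122 to 2627 bases with 14 to 22 counts in flower and 32 to 55 in leaf. In TR32795|c1_g1, i6 of 229 bases led in flower with 3 counts and a share of 27.8%, ahead of i9, i5 and i10 with 17, 45 and 32 counts and shares of 23.4%, 20.8% and 18.9%. The leaf lead of that locus was clearer, with 35 of 49 counts in i8 of 985 bases and 71.4% of the counts (56.7 to 83.4).

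In loci with many transcripts the change was spread over several of them. Of the 6 loci with 6 transcripts, the 3 with the most counts in the library with fewer are described here. In TR31825|c3_g1, the flower leader i4, of 1733 bases, received 430 counts, or 41.0% of the flower counts, but after division by length the 6 flower shares lay between 12.7 and 25.3%, the latter that of i4. In leaf, i7 of 1686 bases held 82.4% with 114 counts, having had 223 in flower. The other 5 transcripts, the flower leader included, had 31 to 430 counts in flower and 0 to 16 in leaf. TR27465|c2_g3 had 991 counts in flower and 65 in leaf. Its i2, of 412 bases, received 19 and 18 counts. The other 5 had 18 to 345 in flower and 0 to 24 in leaf. After division by length i2 led in leaf with a share of 65.8%, although i1, of 1559 bases, had more leaf counts (24). Without that division the move of i2, flower minus leaf, was -25.8 points instead of -59.1. TR27734|c0_g1 had opposite leaders. Its i3, of 1471 bases, received 193 counts in flower and 17 in leaf, and i6, of 747 bases, received 10 and 41, close to i4, of 812 bases, with 9 and 43.

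Of the 178 members, 160 reached 1 TMM-scaled CPM in flower, in leaf or in both and 18 did not. At least 4-fold higher in flower were 46 of the 160, against 15.6% of the 44042 transcripts of the series that reached this level. At least 4-fold higher in leaf were 45, against 9.79%. The rule selects such transcripts, so these numbers describe the members and support nothing. The 46 comprised 25 flower leaders, 20 transcripts that led in neither tissue and 1 leaf leader. The 45 comprised 28 leaf leaders, 16 that led in neither and 1 flower leader. Calls in both directions within 1 locus were found in 7 of the 55 loci. The rule favours these as well, and their share over all compared loci was not taken.

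Members with no count in 1 library numbered 15 for flower and 16 for leaf, which is 8.43% and 8.99% of the members. Of the 15963 transcripts of the compared loci, 1.19% and 1.06% had none. The rule favours such transcripts, so these numbers describe the members and support nothing. Among the leaders, 10 leaf leaders had 0 counts in flower and 7 flower leaders had 0 counts in leaf. The most counted of these were i1 of TR28469|c0_g1, with 123 counts in flower, and i3 of TR33274|c3_g4, with 68 in leaf. Absence from a tissue was not shown by these zeros, since each allows up to 3 counts.

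Just inside the threshold of 50 points were TR32795|c1_g1, whose leaf leader moved by 50.03 points, TR19482|c2_g1, whose leaders moved by 50.1, and TR30368|c1_g1, whose flower leader moved by 51.5. In TR19482|c2_g1, i2 of 312 bases received 99 counts in flower and 40 in leaf, and i1 of 275 bases received 8 and 44. Just outside were TR25428|c0_g3 at 49.8 points, TR33509|c0_g1 at 49.8 and TR29114|c0_g1 at 49.2. TR25428|c0_g3 had many counts, with 248 in flower and 748 in leaf for i2 of 643 bases, and 161 and 4764 for i1 of 797 bases.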

How the data were processed

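Polyadenylated RNA of 1 flower and 1 leaf sample was sequenced from strand-specific libraries, per the labels' protocols. Trimmomatic and RSEM are named in the submitters' processing notes; no version is listed, and the aligner, assembler and reference are not stated in the sources used here. The authors deposited an expected count per transcript, TPM (count per effective length, scaled to a common total), FPKM and an isoform percent, which took no value other than 0 and 100, as no 2 of the 81913 transcripts share a gene identifier. Effective length, deposited by the authors, is the length available for fragment starts. The series-wide FPKM table of the authors differed from the per-library FPKM by at most 0.005 for all transcripts and added no values.

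Expected counts were rounded, which altered none. The library totals were 7442016 (flower) and 7234013 (leaf). Shares were computed in Python 3.11.15 with pandas 2.3.3, numpy 2.4.6 and scipy 1.17.1, and figures drawn with matplotlib 3.10.9. Log2 ratios used edgeR 4.0.16 in R 4.3.3 with TMM factors of 1.02 (flower) and 0.983 (leaf) and a prior count of 2. The 4-fold calls covered all transcripts with at least 1 TMM-scaled CPM in at least 1 library. DESeq2 1.42.0 size factors were an alternative. Both steps were tested on simulated data. Named loci are the 8 with the most counts in the library with fewer, the 5 largest moves, 3 of the 6 loci tied at the most transcripts (6), chosen by more counts in the library with fewer, the 3 largest summed ratios in each direction, and 3 on either side of the threshold; others are marked in the text. The members, lists and rules were chosen with earlier results of these data known.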

Additional observations from a re-analysis of the deposited data

How the results depend on the processing

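Leaving out a replicate was not possible. No paired analysis was possible because each tissue has 1 library. Requiring at least 50 counts per locus and library left 36 switching loci of 4624 compared, in 21 of which the flower leader was the longer, and at least 100 counts left 28 of 3437 (16 with the longer flower leader), with 897 loci of differing leaders. A move of at least 0.4 gave 108 loci (60 with the longer flower leader), at least 0.6 gave 25 (16), and at least 0.5 in both leaders gave 27 (20). These follow from the narrower or wider conditions. The flower leader was the longer in 55.6 to 74.1% of the loci under the alternatives run, and with the wider limit of 0.4 in 55.6%. The number of switching loci stayed within a factor of 1.5 of 55 under the remaining settings. It was 81 with at least 10 counts and 55 without an upper limit of transcripts. Deposited TPM or FPKM gave 55 each, the same loci. Both are, like the share, levels per effective length, so this agreement was fixed in advance apart from rounding. With transcripts under 300 bases left out it was 44. At least 10 counts per leader, an alternative chosen after seeing the data, gave 45. Without division by length it was 37, of which 31 were among the 55, and the other 24 of the 55 were lost. The members at least 4-fold apart ranged from 35 to 48 for flower and 33 to 48 for leaf. Of all transcripts tested under the same settings, 9.11 to 17.2% were called for flower and 5.93 to 12.1% for leaf. The number with summed levels at least 2-fold apart was 26 to 33 of 55, against 30.1 to 30.8% of all compared loci. It was 22 of 45 with at least 10 counts per leader. Of the 22 named switching loci, none changed the direction of its larger move without division by length (0 reversals). Deposited TPM and FPKM gave 0 reversals too, which was fixed in advance for the reason given above. With transcripts under 300 bases left out, none of the 19 that gave a value reversed. TR19482|c2_g1, TR19642|c0_g1 and TR28039|c0_g1 gave no value there. In 9 of the 22 the move changed beyond counting error without division by length. In TR24856|c1_g1 it went from -73.1 to -65.3 points with the short transcripts left out. Depth limits most the 19 loci with 20 to 49 counts in the library with fewer.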

Other observations

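Transcript numbers were not consecutive in 25 of the 55 switching loci (45.5%, against 40.7% of all compared loci), and 58 numbers below the highest one were not among the transcripts analysed here. The shares are therefore shares of the transcripts analysed, not of every transcript the numbering implies. The 55 loci had 55 different leading numbers in their identifiers, so no 2 of them came from the same numbered group. Of these loci, 39 shared that number with another locus that was not among the 55. The share of all compared loci that do so was not taken, so this number does not set the switching loci apart.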
